A study of Mus musculus with 20 samples.

Results

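Kidneys of mice that had been preconditioned before a long ischemia were compared with kidneys of mice that went through the long ischemia alone. The comparison holds 8 of the 20 arrays of the series, chosen by the sample titles: 4 of the group IPC+IRI and 4 of the group IRI. All mice were C57BL/6 males, 8 to 12 weeks old. In both groups the 2 renal pedicles were clamped for 45 min and the kidneys were taken after 6 h of reperfusion. In the IPC+IRI group both pedicles had also been clamped for 15 min, 7 days earlier. No group that was preconditioned without the long ischemia, or that had a sham operation 7 days before, was analysed here. The other 3 groups of the series, with 4 arrays each, serve only as references. For Control mice the paper describes neither surgery nor treatment. Hemin mice received hemin (25 mg/kg, intraperitoneally) without surgery, and IRI+Hemin mice received the same dose 24 h before the 45 min clamping. The question put by the comparison is how the transcript profile of the ischemic kidney differs when the ischemia was preceded by a short one.

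Ischemia stops oxidative metabolism in the kidney, and the proximal tubule, which depends on fatty acid oxidation, is the segment most exposed to it. Reperfusion brings oxidative stress, immediate early and stress gene transcription, endothelial activation and the entry of leukocytes. Ischemic preconditioning is the procedure in which a brief ischemia makes an organ less sensitive to a later and longer one; in its late form the protection is seen days afterwards and involves newly made proteins, antioxidant and heat shock proteins among those studied.

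Total kidney RNA was hybridised in a single colour to Agilent whole mouse genome arrays, and the level of a gene is given throughout as log2 of its signal over the 75th percentile of all signals on the same array, so that 0 is the 75th percentile and a difference of 1 is a doubling. The 75th percentile itself lay between 162.1 and 280.8 intensity units on the IRI arrays and between 221.6 and 303.7 on the IPC+IRI arrays, and 57.4 to 62.1% and 62.5 to 66.1% of the genes were well above background on them. Correlations between arrays were 0.982 to 0.991 within IRI, 0.973 to 0.987 within IPC+IRI and 0.944 to 0.967 between the 2 groups. The labels do not say that each array is a different animal, so the p-values measure the spread between these arrays. As tissue checks, the kidney markers Egf, of the distal tubule, and Slc22a8, an organic anion transporter of the proximal tubule, were well above background on all 8 arrays.

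The 4 arrays of a group shared 1 slide that held no other group, and IPC+IRI and IRI were scanned on different days, so slide, scan day and preconditioning cannot be told apart within the 8 arrays. The scan headers give a partial reference: Control and IRI were scanned on 1 day and IPC+IRI and Hemin together on another. Hemin minus Control is therefore a difference across the same 2 scan days with no surgery described on either side, and it also holds whatever hemin does. The change IPC+IRI minus Hemin less the change IRI minus Control is called here the difference of the within-day changes. It removes what is shared by all arrays of a day, while the effect of hemin without surgery and the slide of each group remain in it. It contains the same 8 arrays as IPC+IRI minus IRI, so for genes chosen by that difference it is no independent test. Array 2 of the Control group shared the slide and scan day of the other 3 but lay at or towards the Hemin level for several genes that differ between Hemin and Control. Its Lars2 level was 8.98 against 3.95 to 4.01, with Hemin at 8.67 to 8.78. Its Fmnl1 level was −2.14 against −0.32 to 0.57, with Hemin at −2.72 to −2.40. IRI+Hemin, scanned on another day, had Lars2 at 8.24 to 8.72. What set these levels was not tested, and some values of this kind are also given without Control array 2.

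**Figure D1:**
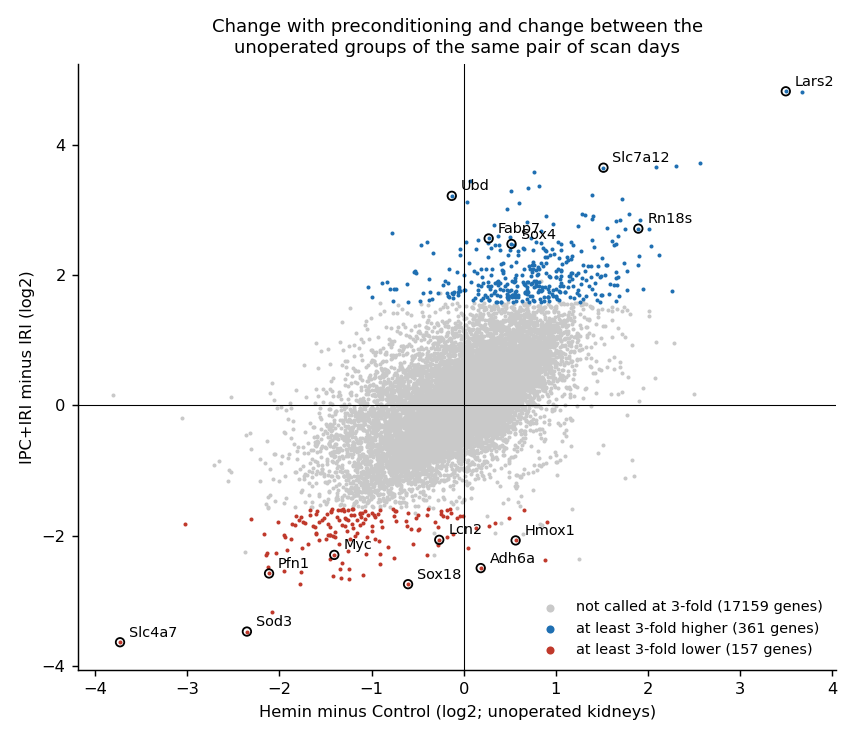
Each point is 1 of the 17677 genes tested. The horizontal axis is the log2 difference Hemin minus Control, across the same scan days and with no surgery described on either side. The vertical axis is IPC+IRI minus IRI. Genes called at least 3-fold higher (361) or lower (157) in IPC+IRI are coloured. The cloud leans along the diagonal (r = 0.622 over genes, none of them a replicate of the others; the 2 differences share no array), and the lower calls in particular lie to the left of 0, while a part of the higher calls lies near 0 on the horizontal axis.

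Of 17677 genes tested, 361 were at least 3-fold higher in IPC+IRI than in IRI (2.04%) and 157 at least 3-fold lower (0.888%) at an adjusted p below 0.05 (limma with Benjamini-Hochberg adjustment). At the adjusted p alone, 4642 genes were higher (26.3%) and 3153 lower (17.8%), around a median difference of 0.09 over all genes tested. In 3921 genes (22.2%) all 4 IPC+IRI arrays lay above all 4 IRI arrays and in 2769 (15.7%) all lay below. Among the 3-fold calls, 125 higher and 92 lower genes were well above background on all 8 arrays, whereas 157 higher genes were so on none of the IRI arrays and 24 lower genes on none of the IPC+IRI arrays. Without any scaling between arrays the median rose to 0.41 and the 3-fold counts to 723 higher and 62 lower, so directions below are relative to the array's 75th percentile.

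The 2-day reference took in much of this. Hemin against Control alone gave 3381 genes higher (19.1%) and 2931 lower (16.6%) of the same 17677. It shared 152 of the 361 higher genes (42.1% of these and 4.5% of its own list) and 101 of the 157 lower genes (64.3% and 3.45%), and put 6 of the higher and 0 of the lower genes past the threshold in the opposite direction. The median of the 361 was 1.91 in IPC+IRI minus IRI, 0.74 in Hemin minus Control and 1.25 in the difference of the within-day changes. For the 157 lower genes the same medians were −1.84, −1.21 and −0.70. In the difference of the within-day changes itself 524 genes were higher (2.96%) and 128 lower (0.724%), and 99 of the 361 (27.4%) and 14 of the 157 (8.92%) passed in their direction. Without Control array 2 these became 78 (21.6%) and 9 (5.73%).

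The probes whose letters bear on what follows are shown next, as the array design gives them, from 5′ to 3′ in lower case and with positions in the mouse build mm9. The first set are the probes of ribosomal RNA and of Lars2, which were high on the same arrays, and the second the probes of Slc4a7, Kpna4 and Hspa4, genes whose probes moved apart. Sod3, Hmox1 and Ubd follow as probes of single-probe genes described below.
Lars2: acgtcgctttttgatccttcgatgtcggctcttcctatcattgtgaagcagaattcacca
Rn18s probe 1: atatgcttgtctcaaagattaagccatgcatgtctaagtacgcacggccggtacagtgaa
Rn18s probe 2: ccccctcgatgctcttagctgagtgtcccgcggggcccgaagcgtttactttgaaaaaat
LOC236598: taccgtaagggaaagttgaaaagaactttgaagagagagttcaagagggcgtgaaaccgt
Slc4a7 probe 1: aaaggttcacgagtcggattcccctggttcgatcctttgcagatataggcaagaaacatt
Slc4a7 probe 2: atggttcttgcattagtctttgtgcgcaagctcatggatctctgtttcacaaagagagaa
Slc4a7 probe 3: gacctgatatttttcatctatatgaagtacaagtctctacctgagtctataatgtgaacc
Kpna4 probe 1: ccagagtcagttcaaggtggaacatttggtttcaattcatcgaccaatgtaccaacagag
Kpna4 probe 2: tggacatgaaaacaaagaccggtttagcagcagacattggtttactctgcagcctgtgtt
Kpna4 probe 3: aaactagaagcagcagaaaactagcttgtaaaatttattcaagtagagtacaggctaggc
Hspa4 probe 1: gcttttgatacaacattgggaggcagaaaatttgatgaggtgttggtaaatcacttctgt
Hspa4 probe 2: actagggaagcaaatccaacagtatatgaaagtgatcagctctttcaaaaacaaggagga
Hspa4 probe 3: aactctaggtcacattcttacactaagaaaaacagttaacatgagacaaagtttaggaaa
Sod3: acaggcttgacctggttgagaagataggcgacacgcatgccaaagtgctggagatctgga
Hmox1: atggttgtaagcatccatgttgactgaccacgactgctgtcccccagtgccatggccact
Ubd: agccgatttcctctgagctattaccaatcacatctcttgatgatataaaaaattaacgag
The Lars2 probe lies at chr9:123371116-123371175 (plus strand), the Rn18s probes at chr17:39983322-39983381 and chr17:39984059-39984118 (plus strand), and the LOC236598 probe at chr2:22600367-22600426 (minus strand). The Slc4a7 probes run along the plus strand of chromosome 14 from chr14:15572341-15572400 to chr14:15632300-15632359, the Kpna4 probes along the minus strand of chromosome 3 from chr3:68878026-68878085 to chr3:68876192-68876251, and the Hspa4 probes along the minus strand of chromosome 11 from chr11:53094143-53094202 to chr11:53073347-53073406. Sod3 is read at chr5:52759318-52759377 (plus strand), Hmox1 at chr8:77624207-77624266 (plus strand) and Ubd at chr17:37332688-37332747 (plus strand). Transcript models were not used here, so exon or untranslated position is not given for these probes. All probes were 60 bases long; the median GC content was 43.3% over the 26150 probes tested, 38.3% for the 743 called at least 3-fold higher and 41.7% for the 348 called at least 3-fold lower.

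The top genes described next were taken from called genes with a symbol that were well above background on all 8 arrays and whose groups did not overlap, so that a lack of overlap is part of their choice and no finding. The largest rise among them was that of Lars2, the mitochondrial leucyl-tRNA synthetase. Its levels were 2.78, 4.03, 4.39 and 4.30 on the IRI arrays and 9.05, 8.49, 8.64 and 8.63 on the IPC+IRI arrays, a log2 fold change of 4.83 ± 0.76 (SE, n = 4 and 4, adjusted p = 9.98e-05, limma). Hemin arrays had a mean of 8.72 and Control array 2 was also at that height, and the difference of the within-day changes was 1.33 ± 1.08 (adjusted p = 0.524) and 0.08 without that array. The same arrays were high for 18S ribosomal RNA, read by Rn18s, with a log2 fold change of 2.72 ± 0.56 (adjusted p = 0.000957; 2.13 without IRI array 1, the lowest), and for 28S ribosomal RNA, read by LOC236598 (now Rn28s1), with 4.82 ± 0.56 (adjusted p = 9.09e-06). Their within-day differences were 0.82 (adjusted p = 0.608) and 1.15 (adjusted p = 0.442). No ribosomal RNA sequence was searched with the Lars2 probe, so whether it also reads ribosomal RNA was not tested.

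Slc7a12, an amino acid transporter of the proximal tubule, was the next. Levels of −1.74, −0.80, −0.90 and −1.26 in IRI stood against 2.80, 1.00, 2.78 and 3.33 in IPC+IRI (3.65 ± 0.56, adjusted p = 7.6e-05). IPC+IRI array 2 was the lowest of its group. Hemin (mean 1.25) lay above Control (mean −0.27), and the within-day difference, 2.14 ± 0.79, did not pass (adjusted p = 0.137). Abp1, now Aoc1, the diamine oxidase that breaks down histamine, rose by 2.92 ± 0.53 with values from −0.22 to 3.38 in IPC+IRI (2.16 without array 3, the highest), and Lmnb1, the nuclear lamina protein lamin B1, by 2.71 ± 0.25. For these as well the within-day differences, 1.60 and 0.70, did not pass (adjusted p = 0.242 and 0.276).

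A second set of top risers kept their call within the days, with and without Control array 2. Ubd, a ubiquitin-like modifier induced by inflammatory cytokines, was at −3.85, −4.13, −3.93 and −4.00 in IRI and at −1.76, −0.98, 1.21 and −1.49 in IPC+IRI (3.22 ± 0.46, adjusted p = 4.3e-05). IPC+IRI array 3 stood highest, and without it the log2 fold change was 2.57. Control (mean −3.68), Hemin (−3.81) and IRI+Hemin (−4.15) lay near IRI (mean −3.98), and the within-day difference was 3.35 ± 0.65 (adjusted p = 0.00995; without Control array 2, 3.07, adjusted p = 0.0227). Sox4, a transcription factor of developing and regenerating epithelia, read −1.74, −0.84, −1.69 and −1.13 in IRI and 1.58, 0.51, 1.78 and 0.66 in IPC+IRI (2.48 ± 0.30, adjusted p = 1.21e-05). Its within-day difference was 1.96 ± 0.43 (adjusted p = 0.0175), and its level also exceeded that of IRI+Hemin (adjusted p = 0.011).

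Fabp7, a fatty acid binding protein, went the other way under ischemia alone. It was at −1.70, −1.39, −1.27 and −1.50 in IRI, below Control (mean 0.12), and at 1.44, 1.01, 0.76 and 1.19 in IPC+IRI (2.57 ± 0.24, adjusted p = 1.67e-06). Its within-day difference was 2.29 ± 0.34 (adjusted p = 0.00172). Mmgt2, a membrane magnesium transporter, was likewise lower in IRI (mean −3.84) than in Control (−2.02) and lay at −1.07 in IPC+IRI, which is 2.76 ± 0.22 above IRI (adjusted p = 3.27e-07), with a within-day difference of 1.52 (adjusted p = 0.0129). Ckap4, which shapes the sheets of the endoplasmic reticulum, rose by 2.54 ± 0.19 from IRI (mean 0.22) to IPC+IRI (mean 2.76), and by 1.15 ± 0.27 in the within-day difference (adjusted p = 0.0239).

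**Figure D2:**
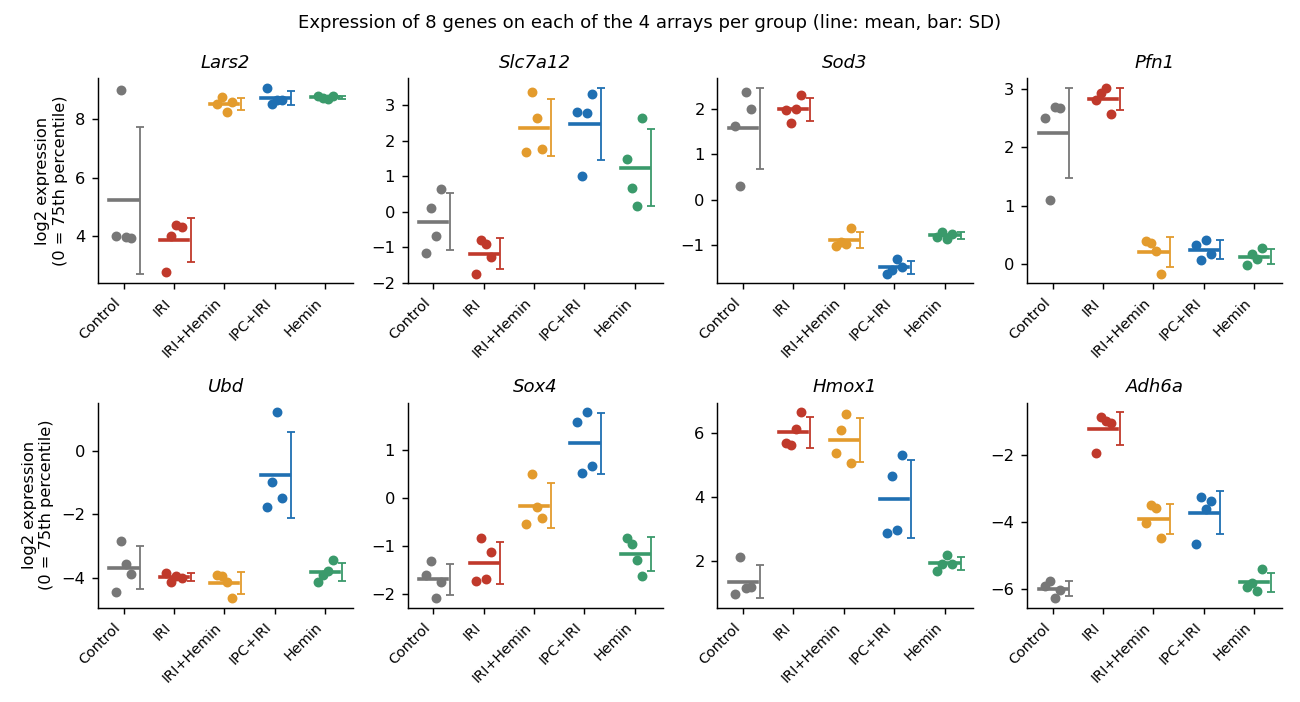
Levels of Lars2, Slc7a12, Sod3, Pfn1, Ubd, Sox4, Hmox1 and Adh6a on every array of the 5 groups, as log2 of the signal over the array's 75th percentile. Each point is an array, each horizontal line the group mean and each bar the SD. Lars2 and Pfn1 in IPC+IRI sit at the height of Hemin and IRI+Hemin, the 4 IPC+IRI arrays of Sod3 (−1.63 to −1.29) sit below all of theirs, and Control array 2 sits apart from the other Control arrays; Ubd and Sox4 are higher in IPC+IRI than in the other 4 groups, and Hmox1 and Adh6a in IPC+IRI lie between the IRI arrays and the uninjured ones.

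The largest falls were mostly of genes that also separated Hemin from Control. Sod3, the extracellular superoxide dismutase, read 1.98, 1.69, 2.00 and 2.30 in IRI and −1.63, −1.53, −1.29 and −1.48 in IPC+IRI (−3.47 ± 0.28, adjusted p = 4.36e-07). Hemin (mean −0.78) and IRI+Hemin (−0.88) were low as well, and the within-day difference was −1.12 ± 0.40 (adjusted p = 0.124). Pfn1, the actin monomer binding protein profilin, fell from 2.82, 2.93, 3.01 and 2.58 to 0.34, 0.07, 0.42 and 0.18 (−2.58 ± 0.25, adjusted p = 2.57e-06), to the level of Hemin (mean 0.13), with a within-day difference of −0.47 (adjusted p = 0.499). The kinase Gsk3a (−2.30), the gamma-secretase subunit Ncstn (−2.54) and Git1, an ARF GTPase-activating protein (−2.56), fell to Hemin levels too, with within-day differences of −0.15, −0.59 and −0.79 and adjusted p of 0.856, 0.443 and 0.267.

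Other falls were of genes that ischemia alone had raised within its own scan day, and this set and the one before are not exclusive. Adh6a, an alcohol dehydrogenase, had a mean of −5.98 in Control and lay between −1.95 and −0.87 in IRI, against −4.65, −3.24, −3.61 and −3.37 in IPC+IRI and a mean of −5.79 in Hemin. The log2 fold change was −2.50 ± 0.29 (adjusted p = 9.51e-06). Adh6a was well above background on 0 of 4 Control and 1 of 4 Hemin arrays, so the fitted within-day difference of −2.68 ± 0.41 (adjusted p = 0.00211) sets dim references against each other and is not an exact size. Lingo4, a leucine-rich repeat membrane protein, rose from −3.72 in Control to −1.47 in IRI and was at −3.77 in IPC+IRI and −4.11 in Hemin; its within-day difference was −1.91 ± 0.46 (adjusted p = 0.0295). Thbs1, the matrix protein thrombospondin, at 0.92, 0.52, 1.22 and 1.15 in IRI and −2.31, −0.74, −1.59 and −1.63 in IPC+IRI, and Itga5, the fibronectin receptor subunit, fell by 2.52 and by 2.66. Their within-day differences of −1.28 and −1.41 did not pass (adjusted p = 0.0847 and 0.121). Both also separated Hemin from Control (−1.24 and −1.25, adjusted p = 0.00306 and 0.0111, limma), with Hemin means of −2.48 and −3.98. Git1, named above, was likewise higher in IRI than in Control (0.87, adjusted p = 0.0146, limma).

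**Figure D3:**
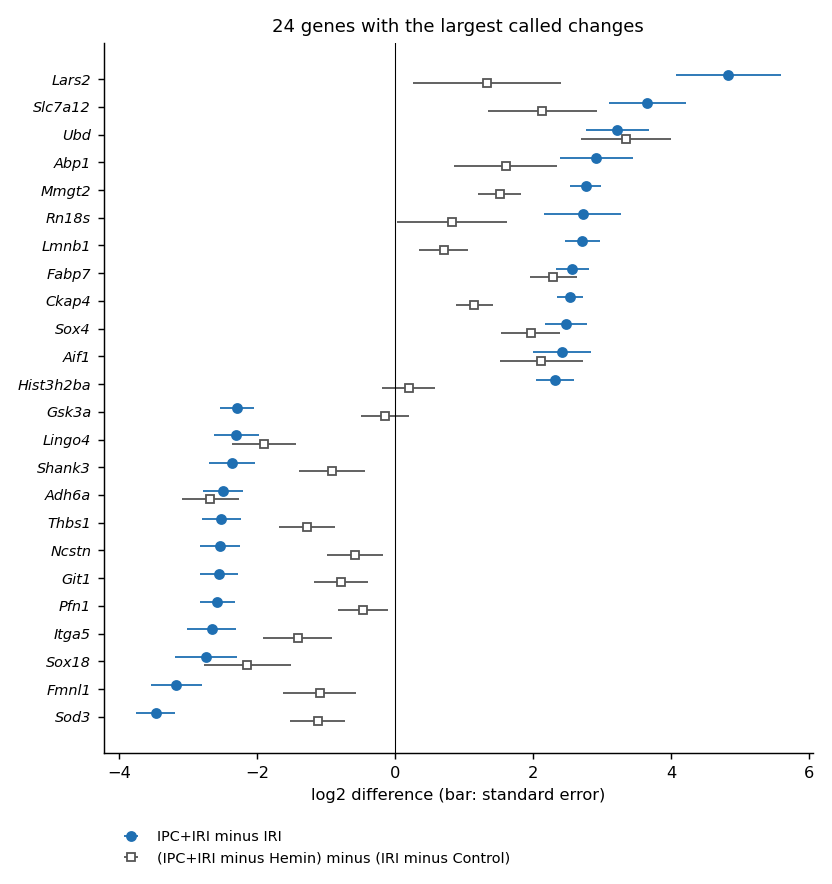
The 12 largest rises and 12 largest falls among genes well above background on all 8 arrays, with a log2 fold change IPC+IRI minus IRI (filled points) and the difference of the within-day changes (open points), each with its SE as a bar. The filled points run from 4.83 for Lars2 down to −3.47 for Sod3; the open points of Ubd, Fabp7 and Sox4 stay close to the filled ones (that of Adh6a does too, but rests on Control and Hemin arrays mostly not well above background), and those of Lars2, Rn18s, Hist3h2ba, Pfn1 and Gsk3a lie much nearer to 0.

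Hmox1, Lcn2 and Ccl2, genes of the acute injury response, were higher in IRI than in Control and lower in IPC+IRI than in IRI, and of these 3 Hmox1 passed in the within-day difference. Hmox1, heme oxygenase 1, read 5.69, 5.63, 6.14 and 6.67 in IRI and 2.87, 4.65, 2.99 and 5.32 in IPC+IRI (−2.07 ± 0.46, 4.21-fold lower, adjusted p = 0.00163). The highest preconditioned array lay below the lowest IRI array, and within IPC+IRI the 4 arrays split into a lower and a higher pair. Measured within the days, Hmox1 rose by 4.67 ± 0.46 from Control to IRI and by 2.03 ± 0.46 from Hemin to IPC+IRI, and the difference of the 2 changes passed (−2.64 ± 0.65, adjusted p = 0.0319; without Control array 2, −2.89, adjusted p = 0.0308). IRI+Hemin (mean 5.80) was also above IPC+IRI (adjusted p = 0.0161). By SAM, the stricter test of the study, Hmox1 and Ccl2 were not called between IPC+IRI and IRI.

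Lcn2, the secreted injury marker NGAL, followed the same order, at 1.29, 1.94, 0.63 and 1.77 in IRI and −1.03, −0.90, −0.20 and −0.50 in IPC+IRI, against means of −3.65 in Control and −3.92 in Hemin. The groups did not overlap (−2.06 ± 0.43, adjusted p = 0.001), and the within-day difference of −1.80 ± 0.61 did not pass (adjusted p = 0.106). The monocyte chemokine Ccl2 read 2.61, 1.79, 1.74 and 1.91 in IRI and −1.48, 1.49, 0.72 and −0.11 in IPC+IRI (−1.86 ± 0.45, adjusted p = 0.00322), and its within-day difference of −2.14 did not pass either (adjusted p = 0.0693). Havcr1, the tubular injury marker KIM-1, was not separated (1.26, 1.12, 1.49 and 1.51 against 0.97, 0.99, 2.81 and 1.62; 0.25 ± 0.33, adjusted p = 0.547), and neither of its 2 probes passed (1.18, adjusted p = 0.135, and −0.07, adjusted p = 0.821). Cdkn1a, the cell cycle inhibitor p21, stood between 3.17 and 3.55 in IRI and between 2.63 and 2.98 in IPC+IRI, and the difference of −0.58 ± 0.28 did not pass (adjusted p = 0.105).

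Of the 21 tubular injury markers tested, 2 were higher and 6 lower in IPC+IRI, against 26.3% and 17.8% of all genes, and the median was −0.31 (0.01 without scaling between arrays). The higher ones were Igfbp1, an insulin-like growth factor binding protein (1.66), and Fgb, the fibrinogen beta chain (1.17). The fibrinogen alpha chain Fga was lower (−1.23, adjusted p = 0.0285), but its within-day difference was 0.16, and both fibrinogen calls were lost when single arrays were left out (Fga without IRI 1, IPC+IRI 1 or IPC+IRI 2, adjusted p = 0.0823 to 0.0979; Fgb without IRI 1, 3 or 4 or IPC+IRI 3 or 4, 0.0577 to 0.116). The summed level of the list lay between 8.92 and 9.21 on the IRI arrays and between 8.78 and 9.08 on the IPC+IRI arrays, and between 7.37 and 7.86 on the Control arrays. In the difference of the within-day changes 1 marker, the simple epithelial keratin Krt8 (−0.72), passed lower, and 0 passed higher. Without Control array 2 the counts were 2 lower and 0 higher.

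Counts of list members in IPC+IRI against IRI stand beside 26.3% of all genes higher and 17.8% lower. Stress and immediate early genes ran in both directions. Of 22 immediate early genes, 1 was higher (Klf4, 1.16) and 4 lower, with Myc, a growth-promoting transcription factor, at 2.87 ± 0.21 in IRI and 0.58 ± 0.21 in IPC+IRI (SD, n = 4), without overlap (−2.30 ± 0.26, adjusted p = 7.17e-06). Hemin (−2.58) was below Control (−1.17) for Myc too, and its within-day difference was −0.89 (adjusted p = 0.173). Fosl1, an AP-1 subunit, was 1.43 lower; it was well above background on 1 of 4 Control and 0 of 4 Hemin arrays, so its within-day changes are not given. Of 27 genes of the unfolded protein and integrated stress response, 7 were higher and 9 lower (median −0.31, or 0.01 without scaling). The largest falls in it were those of Trib3, a pseudokinase of the integrated stress response (−1.48, within-day −2.07, adjusted p = 0.0394, and 0.0674 without Control array 2), and of Chac1, which degrades glutathione (3.22 ± 0.46 in IRI, 1.74 ± 0.29 in IPC+IRI, 3.25 ± 0.53 in IRI+Hemin; SD, n = 4; −1.48 ± 0.31, within-day −1.46, adjusted p = 0.0659). Of 24 heat shock genes 5 were higher, led by Hspa1a (0.95) and the mitochondrial co-chaperonin Hspe1 (0.79), and 2 lower (20.8% and 8.33%, both below the shares of all genes); 0 passed within the days in either direction. The call of Hspa1a was lost without IRI array 1 or 3 or IPC+IRI array 1 (adjusted p = 0.0781 to 0.105).

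In the list of heme breakdown and antioxidant genes 13 of 27 were lower and 4 higher (median −0.27, or 0.05 without scaling). Besides Sod3 and Hmox1, catalase (Cat, −1.44), glutathione reductase (Gsr, −1.03) and Gclm, the regulatory subunit of glutathione synthesis (−0.81), were lower, and Keap1, which holds back the antioxidant factor Nfe2l2, was higher (0.97). Their within-day differences were −0.13, −0.10, −0.19 and 0.45, and in the whole list Hmox1 alone passed in that measure. Of 15 MAP kinase phosphatases and their relatives, 3 were higher and 5 lower. Dusp7, a phosphatase of ERK, rose from 0.58 to 0.76 in IRI to 2.26 to 2.58 in IPC+IRI (1.76 ± 0.13), with a within-day difference of 0.73 (adjusted p = 0.0398, and 0.0681 without Control array 2), and Dusp1, an immediate early phosphatase, fell by 1.31 ± 0.29, with a within-day difference of −0.22 (adjusted p = 0.812).

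Markers of cell types were compared next; in these RNA samples of whole kidney, fewer cells of a type and less RNA per cell cannot be told apart. Of 18 endothelial markers 8 were lower and 1 higher (44.4% and 5.56%, against 17.8% and 26.3% of all genes), and the median was −0.32 (−0.00 without scaling). Sox18, an endothelial transcription factor, read −0.53, −2.32, −0.36 and −0.47 in IRI and −4.94, −2.84, −3.89 and −2.99 in IPC+IRI (−2.75 ± 0.45, adjusted p = 0.000133), and it was lower than in IRI+Hemin as well (adjusted p = 0.00657). The vascular cadherin Cdh5 (−1.54), Plvap (−1.33), Pecam1 (−1.16) and Tie1 (−1.13) were also lower, whereas Kdr (0.27) and Flt1 (0.55), the receptors of VEGF, did not pass. The within-day difference passed for Egfl7 (−1.12) and Robo4 (−1.11), and for Sox18 it was −2.14 (adjusted p = 0.0655). The summed endothelial level spanned 5.73 to 5.95 in IRI and 4.73 to 5.88 in IPC+IRI, so the groups overlapped.

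Of 19 leukocyte markers 5 were higher, the same share as of all genes (26.3%), and 1 was lower, with a median of 0.40 that became −0.28 after the normexp background correction. Lyz2, the lysozyme of macrophages and neutrophils, read 1.38, 1.40, 0.63 and 0.75 in IRI and 2.09, 3.80, 4.16 and 2.81 in IPC+IRI (2.18 ± 0.38, adjusted p = 0.000218), without overlap and above IRI+Hemin (adjusted p = 0.0176). Emr1 (now Adgre1), the macrophage antigen F4/80, rose by 1.67 ± 0.44, and Aif1, a macrophage protein outside the list, from −3.43 to −2.66 in IRI to −1.44 to 0.55 in IPC+IRI (2.42 ± 0.42). Cd68, a lysosomal protein of macrophages, was lower (−0.82), a call lost without IRI array 1, 3 or 4 or IPC+IRI array 1 or 3 (adjusted p = 0.0558 to 0.174). The common leukocyte antigen Ptprc (0.64) did not pass, and the B cell markers Ms4a1 and Cd79a were too dim to be tested. The summed leukocyte level was 3.48 to 4.17 in IRI and 3.79 to 5.50 in IPC+IRI, and 0 of the 19 passed in the difference of the within-day changes, where Lyz2 stood at 1.77 (adjusted p = 0.0699) and Aif1 at 2.12 (adjusted p = 0.0546).

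Arrays 2 and 3 of IPC+IRI were the highest of their group for several of these genes. Ciita, the activator of MHC class II transcription, read between −4.19 and −3.86 in IRI and −3.97, −1.46, −1.47 and −2.32 in IPC+IRI (1.73 ± 0.38, adjusted p = 0.00138), so that 1 of the 4 preconditioned arrays lay inside the IRI range. Of 15 antigen presentation genes 6 were higher and 0 lower (median 0.59), with the peptide transporter Tap2 at 1.42 ± 0.16 and the class II chain H2-Ab1 at 0.74. Of 15 complement genes 3 were higher (a share below the 26.3% of all genes) and 0 lower. C3, the central complement protein, read 1.54, 0.26, 0.10 and 0.18 in IRI and 1.40, 2.33, 4.67 and 1.91 in IPC+IRI (2.06 ± 0.55, adjusted p = 0.00588), with 1 array of each group crossing; without IPC+IRI array 3 the difference was 1.36. None of the members of these 2 lists passed within the days. Collagen genes Col1a1 (1.56) and Col1a2 (1.20) were higher, Col1a1 through 1 of its 2 tested probes (1.86, adjusted p = 0.000614, against −0.54, adjusted p = 0.41) and Col1a2 losing its call without IPC+IRI array 2 or 3 (adjusted p = 0.0508 and 0.0546), and the matrix glycoprotein tenascin, Tnc, was lower (−1.97); within the fibroblast, pericyte and smooth muscle list 2 of 17 were higher and 3 lower.

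Chemokines and cytokines were lower in 5 of 20 cases and higher in 1 (median −0.43), among them Il11 (−1.33), a cytokine of stromal and epithelial cells, beside Ccl2. Il11 was also low on the Hemin arrays (−2.81 to −2.40, against −1.87 to −1.15 in Control), and its within-day difference of −0.10 did not pass. The interferon response genes divided the IRI group itself. Oasl1 was at 1.68 and 1.83 on IRI arrays 1 and 2 and at −0.50 and −0.10 on arrays 3 and 4, and Usp18 at 0.79 and −0.27 against −2.83 and −2.10. On the IPC+IRI arrays Oasl1 lay between −1.52 and 0.22 and Usp18 between −3.25 and −2.20. The list's summed level ran from 3.34 to 5.60 within IRI and from 3.37 to 4.29 within IPC+IRI, and 1 of its 20 genes was higher (Stat2, 0.86) and 2 lower (Oasl1, −1.50, and Usp18, −1.40). All 3 calls depended on single arrays: without IRI array 1 or 2 or IPC+IRI array 4 the adjusted p of Oasl1 was 0.0562 to 0.0645, without IRI array 1 or 2 or IPC+IRI array 1 or 3 that of Usp18 was 0.0553 to 0.155, where the log2 fold change without IRI array 1 was −0.77, and without IRI array 3 or 4 or IPC+IRI array 3 that of Stat2 was 0.0505 to 0.0739.

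**Figure D4:**
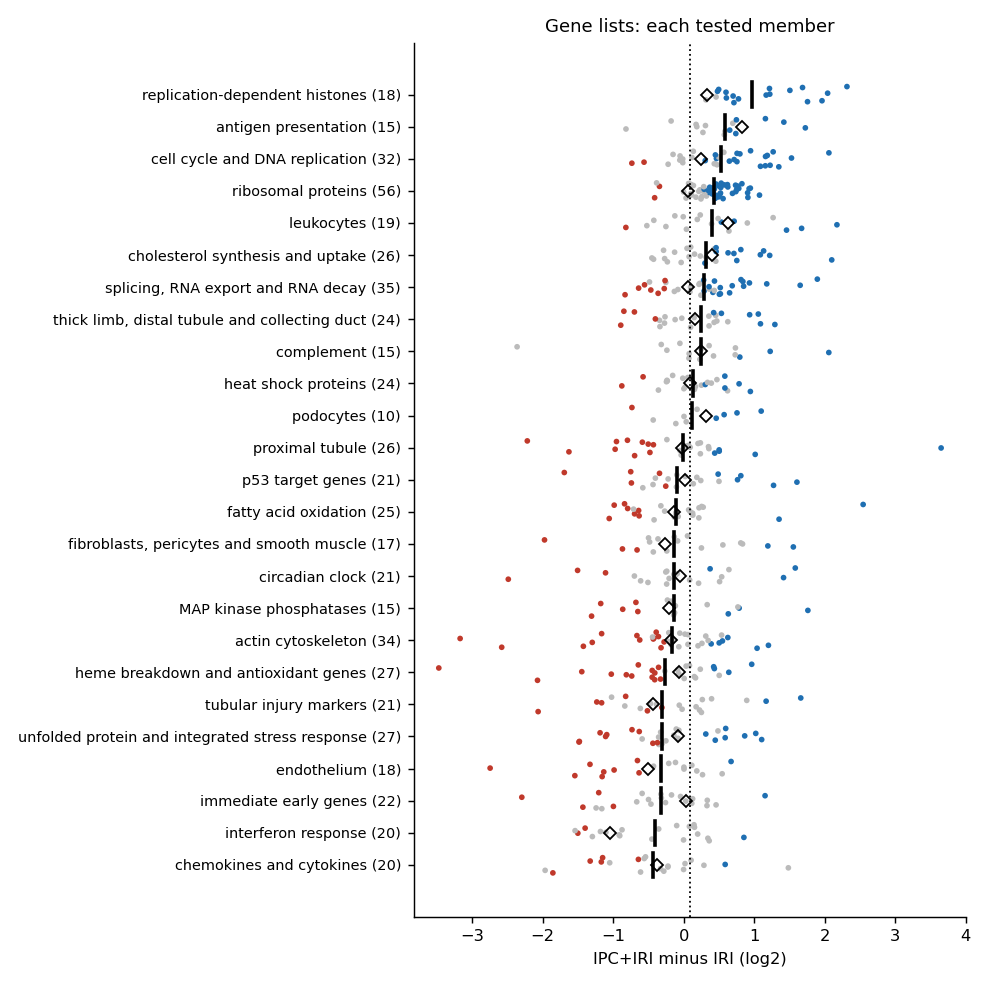
Log2 fold changes IPC+IRI minus IRI of the tested genes in each list; each dot is a gene, blue where it was higher, red where lower and grey where it did not pass an adjusted p of 0.05. The black bar is the list's median, the open diamond the median of its difference of the within-day changes, and the dotted line the median of all genes tested (0.09). The ribosomal RNA list and the groups named by the study are not drawn. The histones, antigen presentation and the cell cycle genes have their medians to the right of the line and chemokines, interferon genes and endothelium to the left. The diamonds of histones and ribosomal proteins fall back towards it.

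Segments of the tubule did not move as blocks. Of 26 proximal tubule genes 5 were higher and 10 lower, with a median at 0.00 on either side of which other scalings fell (−0.07 after quantile normalization, 0.31 without scaling). Lower were Cndp1, a carnosine dipeptidase (−2.22), and Slc22a8 (2.76 to 3.09 in IRI, 1.11 to 1.70 in IPC+IRI, −1.63 ± 0.20), both of which were also lower in Hemin than in Control by 1.92 and 1.59 and had within-day differences of −0.30 and −0.04. Slc5a12, the sodium-lactate cotransporter, read 0.07, 0.52, 0.59 and −0.08 in IRI, below the Control mean of 1.94, and 1.73, 1.80, 0.65 and 0.98 in IPC+IRI. It was 1.02 ± 0.22 higher with preconditioning (adjusted p = 0.00141) and passed within the days at 1.26 (adjusted p = 0.0328), although the mean of the log2 values of its 2 probes gave −0.10. Gatm, the first enzyme of creatine synthesis, differed by 0.02 between the groups, which did not pass, and by 1.32 in the within-day difference, which did.

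In the distal segments 6 of 24 markers were higher and 4 lower (25.0% and 16.7%), near the shares of all genes (26.3% and 17.8%). The potassium channel Kcnj1 rose by 1.29 ± 0.28, Egf fell by 0.89 ± 0.12, and Foxi1, a transcription factor of intercalated cells, fell by 0.85; their within-day differences (0.66, −0.36 and −0.68) did not pass, and the call of Foxi1 was lost without IRI array 1 or 4 or IPC+IRI array 1 (adjusted p = 0.0507 to 0.0594). Of 10 podocyte markers 4 were higher, among them Cdkn1c (0.76), and 1 was lower (Nes, −0.73).

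Energy and lipid genes held several of the rises that were also present within the days. Hacl1, which shortens branched and hydroxylated fatty acids in peroxisomes, read −3.97, −4.09, −3.66 and −5.13 in IRI and −1.40, −1.58, −2.38 and −1.30 in IPC+IRI (2.55 ± 0.31, adjusted p = 1.24e-05). The means of Control, Hemin and IRI+Hemin were −0.93, −0.77 and −1.42, and IPC+IRI differed from Hemin by −0.89 (adjusted p = 0.0333). On 1 IRI array Hacl1 was not well above background. Ppargc1a, the coactivator that drives mitochondrial biogenesis, was at 0.27 to 0.43 in IRI and at 2.27, 1.66, 1.69 and 1.33 in IPC+IRI (1.35 ± 0.19, adjusted p = 3.84e-05), again without overlap. Within the days both passed, at 2.39 (adjusted p = 0.00762) and 1.15 (adjusted p = 0.0238). In the whole list of 25 fatty acid oxidation genes 2 were higher and 7 lower. The carnitine palmitoyltransferase Cpt1a (−1.06) and Decr1 (−0.99), an enzyme of unsaturated fatty acids, were among the lower ones, with within-day differences of −0.56 and −0.01 that did not pass.

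Of 26 genes of cholesterol synthesis and uptake 11 were higher (42.3%, against 26.3% of all genes) and 0 lower, a median of 0.31. Stard4, which carries cholesterol between membranes, rose from −1.74, −1.01, −1.21 and −1.41 to 1.11, 0.66, 0.75 and 0.52 (2.10 ± 0.24, adjusted p = 9.42e-06), with 3.13 at 1 of its 3 probes and 0.50 and 0.58 at the others. Hemin exceeded Control by 1.03 for Stard4 (adjusted p = 0.00378), and its within-day difference of 1.07 did not pass (adjusted p = 0.0897; without Control array 2, 0.81, adjusted p = 0.135). Idi1, the isopentenyl diphosphate isomerase, was at 1.59, 2.37, 1.91 and 1.74 in IRI and at 3.14, 3.21, 3.07 and 3.08 in IPC+IRI (1.22 ± 0.23), with a level of 1.00 in IRI+Hemin. Hemin minus Control had a median of −0.06 over this list, and 5 of the 26 passed higher within the days, where 2.96% of all genes did, and 0 lower, among them Idi1 (1.40), Fdps (1.21), Insig1 (1.00) and Hsd17b7 (0.72), of which Insig1 itself did not pass between IPC+IRI and IRI. Without Control array 2 it was 4.

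In 4 lists, of histones, ribosomal proteins, RNA processing and the cell cycle, more members were higher than lower in IPC+IRI and the median Hemin minus Control was above 0, as held for all genes tested (26.3% and 17.8%, median 0.07). The shares higher were 88.9%, 62.5%, 48.6% and 56.2%. Of 18 replication-dependent histones 16 were higher and 0 lower, 5 of them at least 3-fold (median 0.97), with Hist3h2ba from −3.85, −3.47, −3.50 and −3.16 to −1.16, −1.35, −1.07 and −1.13 (2.32 ± 0.27) and Hist1h4i by 2.04 ± 0.33. The median Hemin minus Control was 0.60 and the within-day median 0.33, and Hist3h2ba stood at 0.20 (adjusted p = 0.82). Of 56 ribosomal protein genes 35 were higher and 2 lower, with medians of 0.43, 0.36 and 0.06 in the same order. Of 35 splicing, RNA export and decay genes 17 were higher and 7 lower (0.29, 0.23 and 0.06), led by the nuclear RNA Malat1 (1.90 ± 0.27) and the splicing factor Zranb2 (1.65 ± 0.23). Of 32 cell cycle and DNA replication genes 18 were higher and 2 lower (0.53, 0.30 and 0.25), with the polymerase subunit Pola1 at 2.06 ± 0.22 and Birc5, survivin, at 1.53 ± 0.39. None of these 4 lists had a member past the threshold within the days in either direction.

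The actin cytoskeleton was lower in 13 of 34 genes and higher in 6 (median −0.17, or 0.15 without scaling). Fmnl1, a formin of blood cells, fell from 0.42, 0.42, 0.42 and 0.33 to −2.82, −2.99, −2.25 and −3.03 (−3.17 ± 0.37), and was 2.08 lower in Hemin than in Control. Tmsb4x, which binds actin monomers as Pfn1 does, was higher (1.20 ± 0.32) and stood at −0.13 within the days. Of 21 p53 target genes 5 were higher and 5 lower, with Gadd45b, a DNA damage and stress gene, at 1.61 ± 0.29 and the death protein Bax at 1.28 ± 0.18, and p53 itself (Trp53) at −0.75 ± 0.15. Their within-day differences were 0.68, 0.21 and 0.35 (adjusted p = 0.368, 0.69 and 0.364), and for Bax −0.03 and Trp53 0.48 without Control array 2. Among 21 clock genes 3 were higher and 3 lower: Cry1, a repressor of the clock, fell from −2.06 to −1.53 in IRI to −4.82 to −3.78 in IPC+IRI (−2.49 ± 0.33), and was well above background on 1 of 4 Control and 0 of 4 Hemin arrays. Within the days 0 of the 21 clock genes passed, and without Control array 2 the counts were 1 higher and 0 lower.

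Gene groups that the study had named from these arrays are not independent evidence of their direction. In its groups of higher genes, 5 of 7 for RNA transport and surveillance, 5 of 5 for endoplasmic reticulum protein processing, 3 of 4 for steroid hormone synthesis, 13 of 25 for transcription and 2 of 5 for microtubule organization were higher, and 0, 0, 0, 1 and 1 were lower. Of the 12 genes in its groups of lower genes, 11 were lower (median −1.41). In that last group the median Hemin minus Control was −1.26, 10 of the 12 were lower in Hemin than in Control, and the within-day median was −0.26 with 0 of 12 past the threshold. Of the transcription group 3 genes passed higher within the days, among them Zfp292, a zinc finger protein (1.65 ± 0.20 between the groups, 1.44 within the days, adjusted p = 0.0116). The histone acetyltransferase Ep300 fell by 1.80 ± 0.31 between the groups and was at 0.21 within the days.

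Several genes could not be described by 1 value, because their probes moved apart. For Slc4a7, a sodium bicarbonate cotransporter, probe 1 fell by 5.38 ± 0.60 while probes 2 and 3 rose by 0.90 ± 0.17 and 0.74 ± 0.23, all past the threshold. The same 3 probes differed by −5.22, 0.99 and 1.03 between Hemin and Control, and the within-day differences were −0.17, −0.09 and −0.29. Kpna4, a nuclear import receptor, fell at probes 1 and 2 (−2.19 ± 0.27 and −2.90 ± 0.24), and probe 3 differed by 0.01 ± 0.18. Between Hemin and Control these 3 probes differed by −1.79, −2.33 and 0.52. Their within-day differences of −0.40, −0.57 and −0.51 did not pass. Hspa4, a relative of the HSP70 chaperones, had differences of 0.14 ± 0.22, −0.40 ± 0.12 and 2.85 ± 0.29 at its probes 1 to 3, so that the gene's mean signal differed by 0.00. Over the array, 699 of the 6017 genes with at least 2 tested probes (11.6%) had probes called in opposite directions, and 2 of these genes were among the 3-fold calls.

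**Figure D5:**
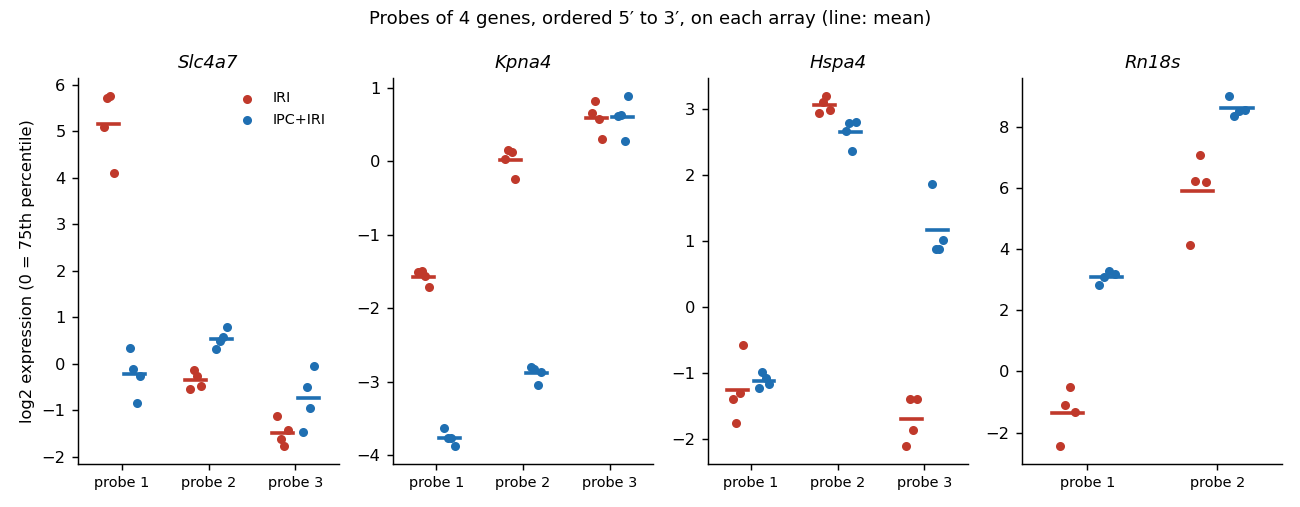
Levels of each probe of Slc4a7, Kpna4, Hspa4 and Rn18s on the 4 IRI and 4 IPC+IRI arrays, as log2 of the signal over the array's 75th percentile, with the probes in order from 5′ to 3′ along the gene. Probe 1 of Slc4a7 and probes 1 and 2 of Kpna4 are lower on every IPC+IRI array, probe 3 of Hspa4 and both Rn18s probes are higher, and the other probes lie closer together.

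Some calls depended on how the signals were treated. After the normexp background correction Aif1, Emr1, Ciita, Hist3h2ba, Hacl1, Zfp292, Zranb2 and Fgb no longer passed. Without scaling between arrays Fga, Egf, Foxi1, Nes, Cd68, Oasl1, Usp18, Trib3, Trp53, Cpt1a, Decr1 and Kpna4 no longer passed, all of them lower in IPC+IRI. In the deposited log2 matrix Rn18s and Emr1, among others, did not pass. By SAM, the permutation test used in the study, at a threshold with a median of 0 false calls, 68 of the 118 named genes past the threshold lost their call, among them Hmox1, Ccl2, C3, Chac1, Trib3, Fosl1, Dusp1, Gadd45b, Cdh5, Slc5a12, Kcnj1 and Emr1.

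Against IRI+Hemin, the other treated ischemic group, which was scanned on a day between the other 2, 1163 of 18101 genes were higher in IPC+IRI (6.43%) and 1017 lower (5.62%). Ubd (3.40 higher in IPC+IRI), Idi1 (2.12), Aif1 (1.90), Lyz2 (1.47), Fabp7 (1.31), Sox4 (1.30), Tap2 (0.94) and Ckap4 (0.86) were higher with preconditioning than with hemin, and Sox18 (−2.11), Hmox1 (−1.84) and Chac1 (−1.51) lower. Adh6a, Lingo4, Ccl2, Mmgt2, Hacl1 and Slc5a12 did not pass in that comparison, with differences of 0.18, −0.09, 0.21, 0.14, −0.24 and −0.02. For Lars2, Pfn1 and Slc7a12 the differences were 0.20, 0.04 and 0.10. A p above the threshold does not show that the 2 groups were equal for these genes.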

How the data were processed

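The authors hybridised Cy3-labelled RNA to 1-colour 60-mer arrays, scanned them at 2 sensitivities and extracted spots with Agilent Feature Extraction, for which the scanner files give version 9.5.3.1; only RNA with an integrity number of at least 8 was used. The deposited scanner files hold background-subtracted intensity (gProcessedSignal), which was used here; the deposited matrix of log2 values, as made by the authors, served as an alternative. Control spots and outlier spots were left out, 43379 spots of 41174 probes remained, signals were divided by each array's 75th percentile, probes of a gene name were averaged and log2 was taken. Genes well above background on at least 3 of 4 arrays in either group with at most 1 missing value were tested (17677 of 27827 names). Symbols are those of the array design; 17304 names matched a current RefSeq symbol and 2483 of these differ. A model with 5 group means was fitted to all 20 arrays in limma 3.58.1 (R 4.3.3), with 15 residual degrees of freedom and Benjamini-Hochberg adjustment; calls are at 0.05, and at 3-fold where stated. An exact permutation of 4 against 4 arrays cannot go below p = 0.029. On simulated data for this comparison (17677 genes, 200 changed), 71% of 2-fold and 91% of 4-fold changes were recovered with 9 false calls, and 46% and 87% in the difference of the within-day changes. With slide and scan day tied to group here, these figures do not give the share of false calls in the comparison itself.

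Named genes were the 12 largest rises and falls well above background on all 8 arrays without overlap or disagreeing probes, the 2 largest rises and falls of each list, and a set of genes named in the study; other list members given were chosen after their values were seen. The members and the gene lists were chosen with earlier results of these data known. Alternatives were another background correction, scaling, probe summary, filter, fit, test and set of arrays; the within-day differences were added after seeing the data. The number of arrays limits the precision. A few of the named genes and 1 probe sequence are not reported here.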

Additional observations from a re-analysis of the deposited data

Results flagged for a closer look

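In 14 of 244 sets of 4 arrays of 1 gene and group, 1 array lay apart from the other 3 by Dixon's criterion for the gap to the nearest array over the range; chance gives about 1 in 20. In IRI these were array 1 for Adh6a (−1.95; the log2 fold change was −2.74 without it), Fga (0.963; −0.97, adjusted p = 0.098 in limma, call lost), C3 (1.54; 2.40) and Malat1 (1.48), array 2 for Sox18 (−2.32; −3.21) and Ppargc1a (0.268), and array 4 for Fmnl1 (0.328), Ehd3 (−0.142) and Tmsb4x (5.18). In IPC+IRI they were array 1 for Usp18 (−3.25; −1.15, adjusted p = 0.112, call lost), array 2 for Ccdc88a (−3.92) and Tef (0.439), and array 4 for Malat1 (4.14) and Clasp1 (−2.43). Except for Fga and Usp18, no gene past the threshold lost its call without the array named.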

How the results depend on the processing

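At least 3-fold higher and lower genes numbered 31 and 15 after the normexp background correction (median of all genes −0.17), 723 and 62 without scaling between arrays, and 126 and 92 among genes well above background on all 8 arrays; the deposited log2 matrix gave 216 higher genes and 137 lower. By an adjusted p alone, normexp gave 2331 higher, no scaling 603 lower, and SAM, the study's test, 564 higher and 375 lower. Higher calls made up 59.6% of the calls at the adjusted p, 48.9% after normexp and 90.7% without scaling. In the 8 arrays alone 3955 genes were higher and 2747 lower, and with the replicate number as a block in those 8 arrays 3002 and 2080 (352 and 150 at 3-fold); same-numbered arrays did not deviate together (r = −0.302, −0.267, −0.0142 and −0.0384), so the numbers do not pair the arrays. Relative to Hemin minus Control the counts were 524 higher and 128 lower (151 and 16 at 3-fold), and 396 and 115 without Control array 2 (115 and 20). Leaving out each array in turn gave 345 to 432 higher and 123 to 194 lower genes at 3-fold, and 4132 to 4709 and 2696 to 3151 at the adjusted p. Of 2675 values of the 122 named genes under alternatives, 2238 kept direction and side of the threshold, 390 lost their call, 3 gained one and 44 turned sign. Relative to Hemin minus Control the sign turned for Fga (0.16), Stat2 (−0.41), Hsf1 (0.45), Trp53 (0.35), Cdk2 (0.53), Tmsb4x (−0.13), Dusp9 (−0.11), Srrm2 (0.0054), Rps15 (0.083), Clasp1 (0.068), Slc4a7 (0.093) and Ep300 (0.21). Without Control array 2 it turned for these, at 0.47, −0.55, 0.57, 0.48, 0.61, −0.47, −0.013, 0.038, 0.075, 0.11, 0.79 and 0.69, and for Hist3h2ba (−0.12), Gsk3a (0.23), Cndp1 (0.039), Slc22a8 (0.16), Cx3cl1 (−0.050), Txn1 (−0.084), Bax (−0.032), Cdkn1b (0.075), Decr1 (0.17) and Rps9 (−0.067). The mean of log2 values over probes turned Slc5a12 (−0.10), Cdkn1b (0.34), Csnk1e (−0.59), Nr2c1 (0.10) and Clasp1 (0.060), the brightest probe Upf3b (−0.033), Hspa4 (−0.40) and Kpna4 (0.012), and normexp Dusp9 (−0.0051) and Ccdc88a (−0.27). For the moved counts the cause was not tested, except that the stricter filter tests fewer genes. A random block for the slide could not be fitted, since each group lies on its own slide. Signal over background limits the dim genes: 157 of the higher calls had no IRI array well above background.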
